A study of Saccharomyces cerevisiae with 6 samples.

Results

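The genes described here encode 10 enzymes of glycolysis in *Saccharomyces cerevisiae*, covering each step from glucose-6-phosphate to pyruvate: *PGI1* (YBR196C), *PFK1* (YGR240C), *PFK2* (YMR205C), *FBA1* (YKL060C), *TPI1* (YDR050C), *TDH3* (YGR192C), *PGK1* (YCR012W), *GPM1* (YKL152C), *ENO2* (YHR174W) and *CDC19* (YAL038W). They are 10 of the 6225 genes on the arrays, each has 1 probe, and they were picked by systematic name for their place in the pathway. The pathway was picked because *PGK1* was already known to be higher in *ccr4Δ* than in wild-type cells in stationary phase on these arrays, so the ratios of *ccr4Δ* to wild-type in stationary phase are given as a description with no test. After 75th percentile scaling, *PGK1* and *ENO2* were about 4-fold higher in *ccr4Δ* than in wild-type cells in stationary phase. The other 8 lay within 1.5-fold of wild-type. Members at least 1.5-fold higher were thus 2 of 10, where 22.6% of all genes were. Under all scalings tried 2 or 3 of 10 were, where 2.14% to 27.0% of all genes were. With *ACT1* as reference, *PGK1* and *ENO2* were each at a log2 ratio of 0.72. The other 8 were then 1.5-fold lower, as were 81.6% of all genes. In log phase none of the 10 differed by 1.5-fold between these strains after scaling to the 75th percentile. By that limit 13.6% of all genes were higher and 15.9% lower. With spike-in probes as reference 9 of 10 were lower, as were 41.2% of all genes. In a fit over the 3 strains after 75th percentile scaling, all 10, *PGK1* included, were lower in stationary phase at a limma adjusted p below 0.05. Of all genes tested, 22.6% were lower at that threshold. By cyclic loess 3 of 10 passed it in that direction, and 1329 of 5728 genes.

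Glycolysis breaks glucose down to pyruvate, and yeast fermenting glucose then turns the pyruvate into ethanol, so its enzymes are among the most abundant proteins of the growing cell. When glucose is used up, the cells respire the ethanol, make sugar phosphates by gluconeogenesis, and in time stop dividing and enter stationary phase. *CCR4* encodes a catalytic subunit of the Ccr4-Not complex, which shortens the poly(A) tails of mRNAs in the cytoplasm as a first step of their decay, and *PBP1* encodes a protein that binds the poly(A)-binding protein Pab1.

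The arrays were 1-colour Agilent yeast arrays, each hybridised with 100 ng of total RNA from wild-type cells, from *ccr4Δ* cells, which lack *CCR4*, and from *ccr4Δ pbp1Δ* cells, which lack both genes. Each strain was grown in YPD, a rich glucose medium, at 28°C and sampled during log phase and during stationary phase, which made 6 conditions with an array apiece. The strains are haploid derivatives of W303, each a single strain, and the study's strain list gives the wild-type as *MATα* and the *ccr4Δ* mutant as *MATa*. The mating type of the *ccr4Δ pbp1Δ* strain, the time of the stationary phase harvest and whether the arrays of a strain came from 1 culture are not given in the sources used here.

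With an array apiece, a ratio between 2 arrays can be neither checked against replicates nor given a p-value, and the strain cannot be told apart from the mating type in any comparison with wild-type. Slide 1 held the wild-type array of log phase and slide 2 held the remaining 5, so slide and strain cannot be told apart in log phase either. Slide and growth phase cannot be told apart in wild-type cells, whereas both arrays of each mutant were on slide 2. The labels were checked with the deleted genes: the *CCR4* probe read 3687 and 2574 in wild-type cells and 5.41 to 10.7 in the mutants, and the *PBP1* probe read 11192 to 19197 in the 4 arrays with the gene and 7.37 and 16.2 in *ccr4Δ pbp1Δ* cells. The a-specific gene *STE2*, the α-factor receptor, read 407 in wild-type, 50033 in *ccr4Δ* and 54969 in *ccr4Δ pbp1Δ* cells in log phase. With the strains in the same order, the α-specific gene *STE3* read 42649, 501 and 551. The share of probes clearly above background ran from 92.7% to 98.4% per array, and no spot was saturated. For those probes the 2 spots had an SD of 0.08 to 0.09 on the log2 scale, and over all probes 0.12 to 0.18. Both SDs cover the spots of an array only, not cultures or labelling.

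The glycolytic probes were bright on every array. In log phase, 8 of the 10 were among the brightest 100 genes on each of the 3 arrays, and the dimmest member, *PFK2*, was at position 307, 305 and 297. In stationary phase, 3 members (wild-type), 4 (*ccr4Δ*) and 5 (*ccr4Δ pbp1Δ*) were among the brightest 100. The median member reached 78.4%, 66.1% and 69.3% of the highest signal of its array in log phase, but 18.2%, 13.5% and 21.7% in stationary phase. These positions rank the signals of probes and not the amounts of mRNA. Whether signals this close to the highest of the array follow the amount of RNA in proportion was not tested. Each probe is compared below only with itself across arrays, as the scanner's processed signal or as a log2 ratio after subtracting the 75th percentile of the log2 signals of each array.

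**Figure D1:**
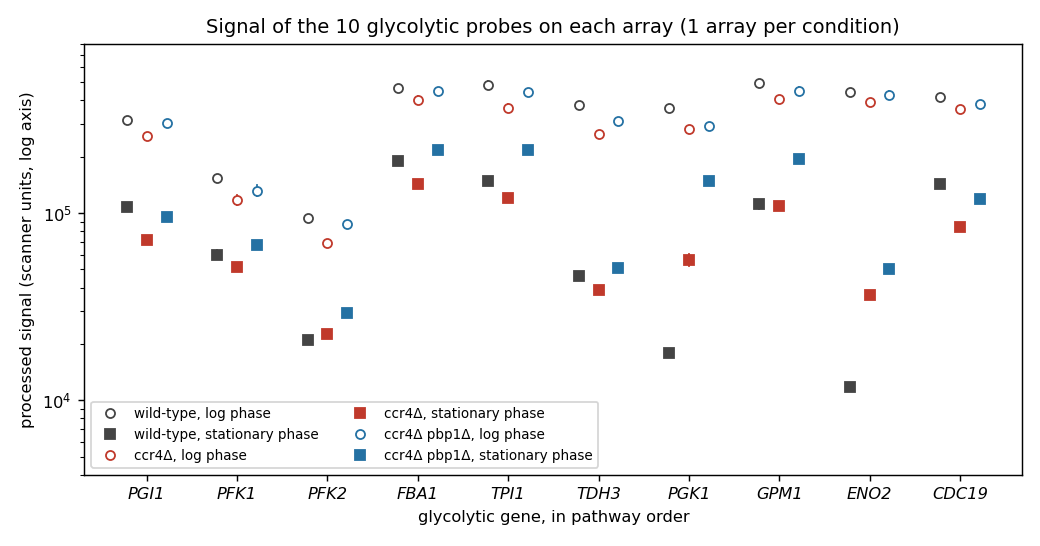
Processed signal (scanner units, log axis) of the 10 glycolytic probes in pathway order, with open circles for log phase and filled squares for stationary phase, one colour per strain and 1 array per condition; bars, mostly hidden by the points, span the 2 spots of a probe. The wild-type stationary phase points of *PGK1* (17991) and *ENO2* (11744) lie below every other point of those genes, while the 3 log phase points of each gene lie close together.

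*PGK1* encodes phosphoglycerate kinase, which makes the first ATP of the lower part of the pathway. In log phase its processed signal was 364107 in wild-type, 281152 in *ccr4Δ* and 290024 in *ccr4Δ pbp1Δ* cells. In stationary phase, with the strains in the same order, it was 17991, 56137 and 148428. The 3 log phase signals lay close together, whereas in stationary phase wild-type was lowest and *ccr4Δ pbp1Δ* highest. After scaling, *PGK1* was 4.12-fold higher in *ccr4Δ* than in wild-type cells in stationary phase, with 3.98-fold and 4.26-fold from its 2 spots, a log2 ratio of 2.04.

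*ENO2* encodes the enolase isozyme of growth on glucose, which forms phosphoenolpyruvate. In the same order of strains, its log phase signals were 442345, 394238 and 427214, and its stationary phase signals were 11744, 36586 and 50319. As for *PGK1*, the stationary phase signal was lowest in wild-type cells and highest in *ccr4Δ pbp1Δ* cells. The ratio of *ccr4Δ* to wild-type in stationary phase was 4.11-fold, with 4.06-fold and 4.16-fold from the 2 spots. By this ratio *PGK1* and *ENO2* stood at positions 96 and 97 from the top among the 6034 genes measured above background in both conditions.

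The count of members at least 1.5-fold higher in *ccr4Δ* than in wild-type cells in stationary phase was 2 of 10 and none was 1.5-fold lower, where 22.6% of all genes were higher and 29.1% lower by that limit. The members' median log2 ratio was 0.16, against -0.08 for all genes, -0.12 for the 300 genes with the brightest probes and -0.36 for 136 ribosomal protein genes. Without *PGK1*, which prompted the choice of the pathway, the median of the 9 others was 0.15 and 1 of 9 was 1.5-fold higher. *PFK2* at 0.51 was the nearest to the limit of those inside it.

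In the upper part of the pathway, *PGI1* encodes phosphoglucose isomerase, and its stationary phase signals were 107469 (wild-type), 71948 (*ccr4Δ*) and 95409 (*ccr4Δ pbp1Δ*), a scaled log2 ratio of *ccr4Δ* to wild-type of -0.18. *PFK1* and *PFK2* encode the α and β subunits of phosphofructokinase, the committed step of the pathway. *PFK1* read 59972, 51391 and 67768, a ratio of 0.18. *PFK2* read 21081, 22734 and 29159, a ratio of 0.51. *FBA1*, for aldolase, read 189865, 143084 and 217512, a ratio of -0.01. *TPI1*, for triose phosphate isomerase, read 147488, 120884 and 216658, a ratio of 0.11. All 5 genes of this part of the pathway therefore stayed within 1.5-fold, and the signal of *ccr4Δ pbp1Δ* cells was above that of *ccr4Δ* cells for each.

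In the lower part, *TDH3* encodes the main glyceraldehyde-3-phosphate dehydrogenase. It read 45999 (wild-type), 38624 (*ccr4Δ*) and 50748 (*ccr4Δ pbp1Δ*) in stationary phase, a ratio of *ccr4Δ* to wild-type of 0.15 on the log2 scale. *GPM1*, for phosphoglycerate mutase, read 111234, 109559 and 194850, a ratio of 0.38. *CDC19*, for pyruvate kinase, the last step, read 142224, 84720 and 118996 and had the lowest ratio of the 10, -0.35. The genes on either side of *PGK1* and *ENO2* in the pathway, *TDH3*, *GPM1* and *CDC19*, were thus all within 1.5-fold of wild-type. Unscaled, 7 of these 8 genes read lower in *ccr4Δ* than in wild-type cells, and *PFK2* read higher.

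**Figure D2:**
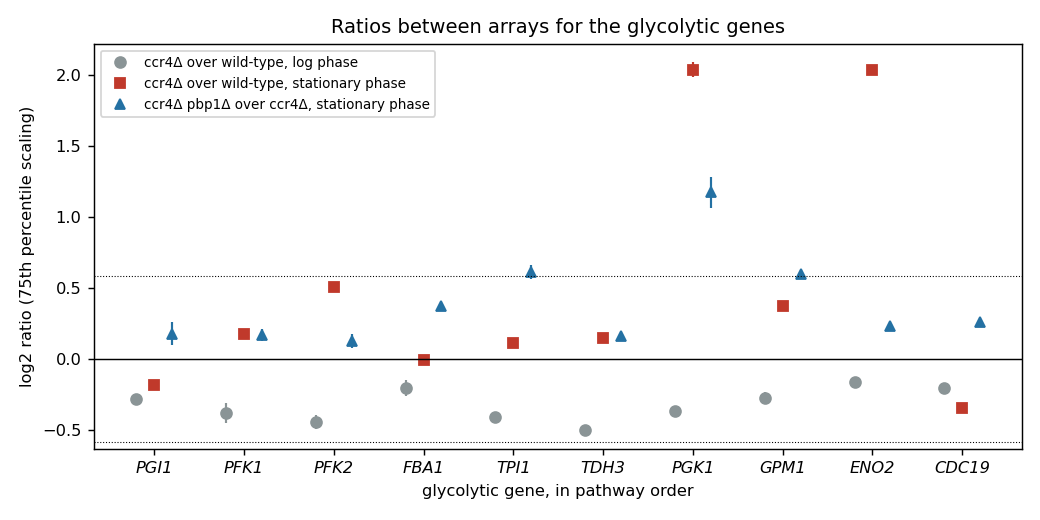
Log2 ratios between pairs of arrays for the 10 glycolytic genes after 75th percentile scaling, for *ccr4Δ* over wild-type in log phase (grey circles) and stationary phase (red squares) and *ccr4Δ pbp1Δ* over *ccr4Δ* in stationary phase (blue triangles); bars span the 2 spots and dotted lines mark 1.5-fold. The red squares of *PGK1* and *ENO2* lie at 2.04, the other 8 lie between -0.35 and 0.51, and under this scaling all grey circles lie below 0.

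In log phase all 10 ratios of *ccr4Δ* to wild-type were below 0, from -0.50 for *TDH3* to -0.16 for *ENO2*, and *PGK1* was at -0.37. None of the 10 reached 1.5-fold in either direction, where 13.6% of all genes were higher and 15.9% lower by that limit. The members' median was -0.32, beside -0.29 for the 300 genes with the brightest probes, -0.50 for ribosomal protein genes and -0.07 for all genes. For *TDH3*, the member farthest from 0, the log phase signals were 375535 in wild-type, 264910 in *ccr4Δ* and 309681 in *ccr4Δ pbp1Δ* cells. The sign of most of these ratios followed the scaling: with cyclic loess the median was 0.09, and only *TDH3* and *PGK1* were below 0 under all scalings tried, down to -0.90 and -0.77. With the spike-in probes as reference 9 of the 10 were at least 1.5-fold lower in *ccr4Δ*, as were 41.2% of all genes.

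The log phase cultures also differed in genes of the stationary phase. Of 8 such markers, 7 were measured in both strains. All 7 were at least 1.5-fold higher in *ccr4Δ* than in wild-type log phase cells, with log2 ratios from 0.74 to 4.06. By that limit 13.6% of all genes were higher. *HSP26*, which encodes a small heat shock protein, read 2343 in wild-type and 36468 in *ccr4Δ* cells. In stationary phase 1 of the 7 was higher and 2 were lower in *ccr4Δ* by that limit. The shares of all genes were 22.6% higher and 29.1% lower. The lowest ratio of the 7 was -2.55, for *SPG4*. Whether these marker differences bear on the glycolytic ratios was not tested.

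Comparing *ccr4Δ pbp1Δ* with *ccr4Δ* cells shows the pathway with and without *PBP1* where *CCR4* is absent. In stationary phase all 10 ratios were above 0, as were 3171 of 5880 genes. All 10 were also above 0 under 6 other scalings, but 9 of 10 were with quantile normalization and 6 of 10 with *ACT1* as reference. The median of all genes moved too, from 0.04 to 0.27 with no scaling, 0.31 with the spike-in probes and -0.16 with *ACT1*. Members at least 1.5-fold higher in *ccr4Δ pbp1Δ* than in *ccr4Δ* cells were 3 of 10, where 10.4% of all genes were that much higher and 10.8% lower. *PGK1* was 2.26-fold higher, with 2.09-fold and 2.43-fold from its spots, and stood at position 57 of 5880 genes. *TPI1* was 1.53-fold and *GPM1* 1.52-fold higher, both at the limit, and for each the lower of its 2 spots fell under it. *ENO2*, which shared the excess of *PGK1* over wild-type, was only 1.17-fold higher here. The remaining 6 lay between 0.13 and 0.38 on the log2 scale. The count of 3 became 1, *PGK1*, with quantile normalization (11.7% of all genes higher), cyclic loess (9.15%), the authors' processed intensities (11.8%) or *ACT1* (4.15%). It was 2, *PGK1* and *GPM1*, with normexp background correction (9.10%), and 4 with no scaling (23.2%) or the spike-in probes (26.4%).

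Against wild-type, and with the same wild-type array, *PGK1* in *ccr4Δ pbp1Δ* cells was 9.29-fold higher in stationary phase, and *ENO2* stood at a log2 ratio of 2.27. Over the scalings tried the log2 ratio of *PGK1* ran from 1.69 to 3.60 and that of *ENO2* from 0.75 to 2.65, lowest with *ACT1* as reference, and the members' median was 0.50 after 75th percentile scaling and -1.02 with *ACT1*. When growing, none of the 10 genes differed by 1.5-fold between *ccr4Δ pbp1Δ* and *ccr4Δ* cells, where 1.52% of all genes were higher and 7.00% lower. The log phase ratios lay between -0.10 for *PGK1* and 0.20 for *PFK2*.

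From log to stationary phase every member gave a lower processed signal in every strain. In wild-type cells, whose arrays of log and stationary phase were on different slides, all 10 were at least 1.5-fold lower, where 30.5% of all genes were. The log2 ratios ran from -1.21 for *FBA1* to -5.15 for *ENO2*, and *PGK1*, at -4.26 or 19.1-fold, was next to *ENO2*. These 2 genes stood at positions 10 and 35 from the bottom of 5761 genes, and *TDH3*, at -2.95, was the third of the 10. In *ccr4Δ* cells all 10 were again at least 1.5-fold lower (26.2% of all genes), with *ENO2* at -2.95, *TDH3* at -2.30 and *PGK1* at -1.85. In *ccr4Δ pbp1Δ* cells 8 of 10 were (28.6% of all genes), and *PGK1*, at -0.58, was just within the limit with *PFK1*, at -0.57. With cyclic loess the counts lower were 5 of 10 in wild-type (32.01% of all genes), 4 in *ccr4Δ* (27.7%) and 3 in *ccr4Δ pbp1Δ* cells (30.6%), where 2 of 10 were higher. With *ACT1* as reference they were 3 (3.003%), 6 (12.2%) and 5 (19.5%), and in wild-type cells 5 of 10 were then higher, as were 90.6% of all genes.

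The members' median shift was -1.85 in wild-type, -1.39 in *ccr4Δ* and -1.01 in *ccr4Δ pbp1Δ* cells. Each shift shares an array with the ratios between strains above, so the shallower shift of *PGK1* and *ENO2* in the mutants and their excess over wild-type are largely the same measurement. In wild-type cells the median shift was 0.05 for all genes, -1.10 for the 300 genes with the brightest probes and -2.96 for the ribosomal protein genes.

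The growth phase term was tested with limma over the 5728 genes that every array measured above background, with strain as a further term. All 10 members were lower in stationary phase at an adjusted p below 0.05, or 9 of 9 without *PGK1*, where 22.6% of all genes tested were lower and 25.7% higher. *ENO2* fell by 3.60 on the log2 scale (SE 0.49, limma adjusted p = 0.00267) and *TDH3* fell by 2.49 (SE 0.25, limma adjusted p = 0.00108). *PGK1* fell by 2.23 (SE 0.65), given as a description because the pathway was chosen on its stationary phase signals. *PFK1* had the smallest change, -0.86 (SE 0.25, limma adjusted p = 0.0316). The 3 strains stand in for replicates, with 2 residual degrees of freedom, so the p-values measure the spread of the shift between strains and not between cultures of a strain.

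These calls depended on the scaling of bright probes. By quantile normalization, and by the authors' processed intensities, 6 of 10 passed, without *PFK1*, *FBA1*, *TPI1* and *PGK1*, and 1327 of the 5728 genes were lower in each. By cyclic loess 3 passed, *PFK2*, *TDH3* and *ENO2*, where 1329 of the 5728 genes were lower, and *FBA1* and *TPI1* turned to 0.38 and 0.18. Without either *ccr4Δ* array the members' median change was -1.41, with an SE of 0.48 for each gene. Without either *ccr4Δ pbp1Δ* array it was -1.57, with SEs from 0.37 to 0.57. Calls are not counted for these fits, which leave a strain with 1 array. The change of *PGK1* was -1.21 without either wild-type array and -3.05 without either *ccr4Δ pbp1Δ* array, and that of *ENO2* was -2.82 and -4.05. The split of all calls moved as well, from 1293 lower and 1472 higher to 2549 and 583 with the spike-in probes as reference and to 1659 and 887 with no scaling, and all 10 members were lower in both.

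The steps around the 10 genes did not move as 1 block in *ccr4Δ* over wild-type. Glucose enters the pathway through *HXK1*, *HXK2* and *GLK1*, which encode the hexose kinases. In log phase *HXK1* read 8644 in wild-type and 90664 in *ccr4Δ* cells, a log2 ratio of 3.40, and *GLK1* read 17471 and 48710, a ratio of 1.49. *HXK2*, the kinase of growth on glucose, was at -0.56 in log phase and -0.94 in stationary phase. In stationary phase 0 of the 3 kinases were 1.5-fold higher and 1 was lower, where 22.6% of all genes were higher and 29.1% lower.

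The 6 genes listed as isozymes of the members split likewise in stationary phase. Of these, 3 were at least 1.5-fold higher in *ccr4Δ* than in wild-type cells and 1 was lower. By that limit 22.6% of all genes were higher and 29.1% lower. *ENO1*, the second enolase, gave log phase signals of 196169 (wild-type), 167539 (*ccr4Δ*) and 179853 (*ccr4Δ pbp1Δ*) and stationary phase signals of 15054, 35965 and 59412, a ratio of *ccr4Δ* to wild-type of 1.66. Its order of strains was that of *ENO2*, and since the probe sequences were not used, hybridization between these near-identical genes was not checked. *TDH1* and *TDH2*, close copies of *TDH3*, were at 0.01 and -0.06, as near to 0 as *TDH3*. The same limit on cross-hybridization applies to the 3 *TDH* genes. *GPM2* and *GPM3*, relatives of *GPM1*, were at 1.18 and 1.86, and *PYK2*, the second pyruvate kinase, was at -1.16.

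Below pyruvate, *PDC1* and *PDC5* encode pyruvate decarboxylases of fermentation. *PDC1* read 343452 in wild-type and 348226 in *ccr4Δ* log phase cells, and 23805 and 148803 in those of stationary phase, a log2 ratio of 3.04. *PDC5* read 20956 and 26296 during growth but 991 and 28694 in stationary phase, a ratio of 5.25. Both thus had a larger stationary phase ratio than any of the 10 glycolytic genes, with log phase ratios of 0.03 and 0.33. Unlike *PGK1*, both were lower in *ccr4Δ pbp1Δ* than in *ccr4Δ* cells in stationary phase, at -0.64 and -1.86. *ADH1*, the alcohol dehydrogenase that makes ethanol, was at 0.12.

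**Figure D3:**
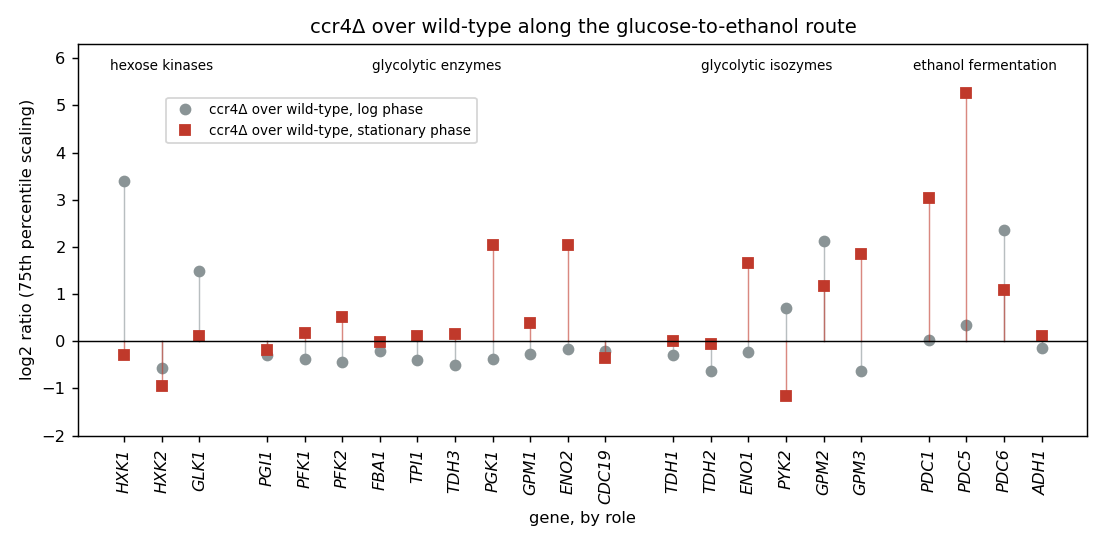
Log2 ratio of *ccr4Δ* over wild-type after 75th percentile scaling for the hexose kinases, the 10 glycolytic genes, their isozymes and the genes of ethanol fermentation, in log phase (grey circles) and stationary phase (red squares), from 1 array per condition. The highest stationary phase points are *PDC5* at 5.25 and *PDC1* at 3.04, followed by *PGK1* and *ENO2* at 2.04, and the highest log phase point is *HXK1* at 3.40.

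Among the regulators, *TYE7*, which encodes a transcription factor of glycolytic genes, read 16076 in wild-type and 5496 in *ccr4Δ* log phase cells and 11415 and 1839 in those of stationary phase. The log2 ratios were -1.54 and -2.23. *GCR1*, for another such factor, was at -1.29 in log phase and -0.28 in stationary phase. *GCR2* and *RAP1* were at 0.02 and -0.10 in log phase, then at -0.50 and -0.53 in stationary phase. None of the 4 was 1.5-fold higher in *ccr4Δ* cells in either phase. Of *PFK26*, *PFK27* and *FBP26*, for the enzymes that make and break the phosphofructokinase activator fructose-2,6-bisphosphate, none differed by 1.5-fold in stationary phase. Of all genes, 22.6% were higher and 29.1% lower by that limit in stationary phase, and 13.6% were higher in log phase.

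Genes of gluconeogenesis and the glyoxylate route, which work when ethanol is the carbon source, differed between the growth phases. *FBP1*, for fructose-1,6-bisphosphatase, which reverses the phosphofructokinase step, read 485 to 869 in log phase and 124708 to 268365 in stationary phase. All 5 such genes were higher in stationary phase in the fit, by 6.36 to 9.24 on the log2 scale. *ADH2*, the alcohol dehydrogenase that consumes ethanol, read 179387 in wild-type stationary phase cells but 20300 in *ccr4Δ* and 13476 in *ccr4Δ pbp1Δ* cells, so the stationary phase cultures of the strains differed in a gene of ethanol use as well. Its part in the excess of *PGK1* and *ENO2* was not tested.

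In the growth phase fit, the neighbouring lists went both ways. Of the hexose kinases *HXK2* was lower and *GLK1* higher in stationary phase and *HXK1* did not pass. Of the 6 isozymes *TDH2* and *ENO1* were lower, at -2.55 and -2.19, *GPM2* was higher, at 2.52, and 3 did not pass. Of the 4 fermentation genes *PDC1* was lower and *PDC6* higher, and *PDC5* and *ADH1* did not pass. Among the lists fixed for their role, only that of the 10 members had every gene pass in the lower direction in the main fit. By quantile normalization 6 of the 10 members passed, and by cyclic loess 3. A shared fall was not particular to the pathway. Of 136 ribosomal protein genes, 135 were at least 2-fold lower in stationary phase in each strain. Among all genes, 1188 of 5761 were that much lower in wild-type, 976 of 5950 in *ccr4Δ* and 1168 of 5838 in *ccr4Δ pbp1Δ* cells. The median shifts of the ribosomal protein genes were -2.96 in wild-type, -2.82 in *ccr4Δ* and -3.57 in *ccr4Δ pbp1Δ* cells.

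The profile of each gene over the 6 arrays was compared with the members' mean profile by the root mean square difference of log2 values, each centred on its own mean. *GPM1* at 0.15 and *PFK2* at 0.15 were the members most like the mean, at positions 6 and 9 of 5728 genes. *PGK1* at 0.74 and *ENO2* at 1.07 were the least like it, at positions 1429 and 3096. The other 6 members stood at positions 107 to 390. The mean includes all 10 members, *PGK1* and *ENO2* too. Outside the lists the 5 nearest genes were *PET122* (0.09), *FRD1* (0.14), *OST1* (0.14), *GND1* (0.14) and *NHP6A* (0.15). *PET122* read 179972 in wild-type, 163943 in *ccr4Δ* and 172159 in *ccr4Δ pbp1Δ* log phase cells and 39506, 38656 and 63918 in the stationary phase cells of these strains, so its stationary phase signals of wild-type and *ccr4Δ* cells were nearly equal, as those of *GPM1* were.

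The ratios of these bright probes moved with the scaling of the arrays. For *ccr4Δ* over wild-type in stationary phase, the members' median log2 ratio was -0.24 with no scaling, -0.20 with the spike-in probes as reference, 0.24 with median scaling, 0.32 with quantile normalization, 0.38 with cyclic loess, 0.16 with normexp background correction, 0.31 by the authors' processed intensities and -1.16 with *ACT1* as reference. A scaling by 1 value per array moved all genes alike, to a median of all genes of -0.48 with no scaling, -0.45 with the spike-in probes and -1.40 with *ACT1*, and left the members' median 0.25 above it. So the sign of the members' median cannot be read without choosing a scaling.

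*PGK1* and *ENO2* were at least 1.5-fold higher under all of them, from 0.72 to 2.56 for *PGK1* and from 0.72 to 2.31 for *ENO2*, with the lowest values under *ACT1*. The share of all genes that much higher ran from 2.14% with *ACT1* to 27.0% by the authors' processed intensities. *ACT1* itself read 43877 in wild-type, 83068 in *ccr4Δ* and 111848 in *ccr4Δ pbp1Δ* cells in stationary phase, in the same order as *PGK1*. Relative to the median of the other 8 members, a comparison added after the values were seen, *PGK1* was 1.89 to 2.26 higher and *ENO2* 1.86 to 2.01 higher on the log2 scale across these scalings. Of the other 8, at most 1 was 1.5-fold higher under any scaling, *PFK2* under 3 of them and *GPM1* under cyclic loess. *CDC19* was 1.5-fold lower with no scaling, at -0.75 (45.9% of all genes lower), and with the spike-in probes, at -0.71 (44.4%). With *ACT1* as reference all 8 were 1.5-fold lower, as were 81.6% of all genes.

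**Figure D4:**
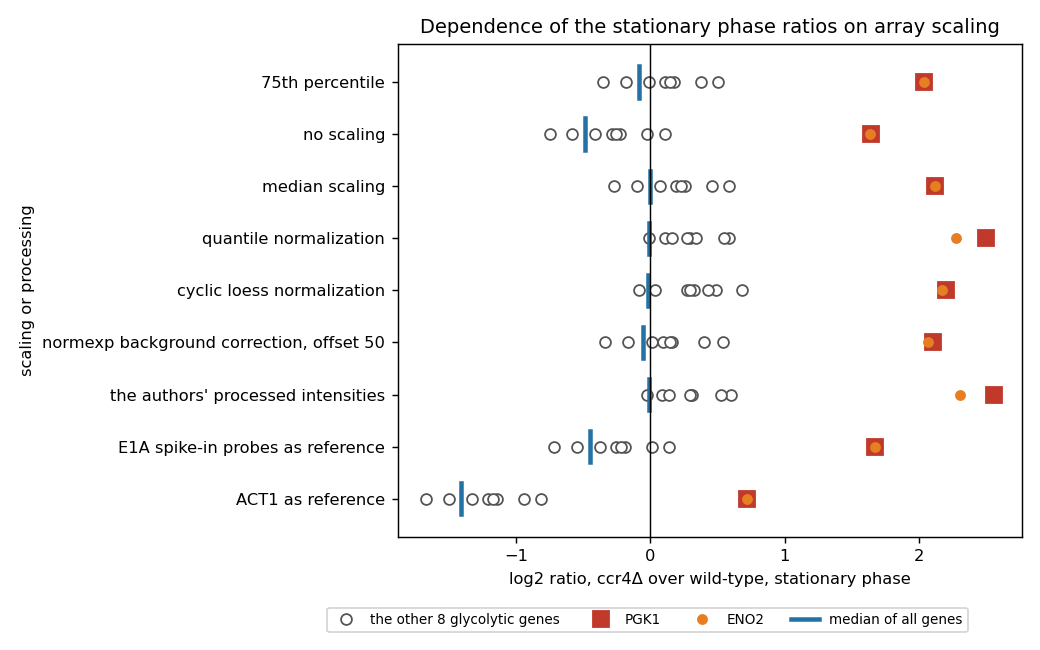
Log2 ratio of *ccr4Δ* over wild-type in stationary phase for the 10 glycolytic genes under 9 ways of scaling or processing the arrays; red squares are *PGK1*, orange circles *ENO2*, open circles the other 8 genes, and the blue bars mark the median of all genes. The open circles cross 0 from one scaling to another, whereas *PGK1* and *ENO2* stay between 0.72 and 2.56 and apart from the other 8.

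The fall from log to stationary phase was more sensitive. The members' median shift in wild-type cells was between -1.48 and -2.60 under 7 of the 9 scalings, but -0.52 under cyclic loess, which fits the trend of ratios with signal, and 0.51 with *ACT1*, whose own signal went from 237465 to 43877. Relative to the median of the other 8 members, the shift of *PGK1* in wild-type cells lay between -2.85 and -2.63 and that of *ENO2* between -3.86 and -3.60 under these 9 scalings. In *ccr4Δ pbp1Δ* cells *PGK1* was 0.32 to 0.67 above the other 8, whereas *ENO2* was 1.60 to 1.88 below them.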

How the data were processed

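Total RNA of 6 cultures was hybridised to 1-colour (Cy3) Agilent yeast arrays by the authors, who deposited the intensity of every spot as Feature Extraction 11.0.1.1 wrote it, and a table of processed intensities whose sorted values are identical on all arrays, as quantile normalization gives, although the sources used here do not name the step. Of its 6316 rows, 6256 matched a probe.

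From the deposited processed intensity, control spots and outlier spots were left out, log2 was taken, each array's 75th percentile was taken off, and the 2 spots of each of 6256 probes were averaged. Genes with more than 1 probe (29 of 6225) were averaged over probes, and 5720 names were found in the RefSeq table. A gene counted as measured when it was well above background on both arrays of a ratio. Ratios of 1.5-fold or more were counted as a description.

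The growth phase term was fitted with lmFit and eBayes of limma 3.58.1 (R 4.3.3, Benjamini-Hochberg at 0.05). The fit was also run on simulated data, after the main fit and with noise taken from it. Other steps used Python 3.11.15 and pandas 2.3.3. The alternatives were other scalings (none, median, quantile, cyclic loess, spike-in probes, *ACT1*), normexp with an offset of 50 on the median signal, which replaced the mean signal that the tables used here do not hold, the authors' processed intensities, a 2-fold limit, the pathway without *PGK1*, no filter on dim probes, a trended prior and leaving out each array. The spike-in reference is the mean log2 signal of the 6 of 10 spike-in probes well above background on all arrays, and an equal amount of spike-in in each sample is assumed, as the sources used here do not give it.

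The members and lists were chosen with earlier results of these data known. The genes named are the 10 members, genes of lists fixed for their role, and the 5 genes outside them with the profile nearest to the members' mean. The lists were hexose kinases, isozymes, fermentation, fructose-2,6-bisphosphate enzymes, transcription factors, gluconeogenic and glyoxylate genes, stationary phase and mating type markers, and *CCR4*, *PBP1* and *ACT1*. Not every listed gene with a probe is named, and the counts given for a list cover all its measured genes. The annotation of the probes uses an older genome build than the RefSeq table, so no coordinates are given.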

Additional observations from a re-analysis of the deposited data

Results flagged for a closer look

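For 7 of the 10 glycolytic genes the ratio of *ccr4Δ* to wild-type had opposite signs in log phase and in stationary phase, by differences on the log2 scale of 2.41 for *PGK1*, 2.20 for *ENO2*, 0.95 for *PFK2*, 0.65 for *GPM1*, 0.64 for *TDH3*, 0.56 for *PFK1* and 0.52 for *TPI1*. In each the log phase ratio was below 0 and the stationary phase ratio above 0. For *ccr4Δ pbp1Δ* over *ccr4Δ* the same was seen for *PGK1*, by 1.27, *CDC19*, by 0.32, and *ENO2*, by 0.26. With 1 array per condition these differences between the growth phases were not tested, and the log phase array of wild-type cells was alone on its slide. *PGK1* and *ENO2* stayed above 0 in stationary phase under all scalings tried. The log phase ratio of *PGK1* reached -0.01 under cyclic loess, and that of *ENO2* turned above 0, up to 0.18 with *ACT1* as reference. The count of 7 also followed the scaling. With no scaling 3 of 10 members were above 0 in stationary phase, and with cyclic loess 6 of 10 were above 0 in log phase.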

How the results depend on the processing

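No paired analysis was possible because the labels give no replicate numbers and each condition has 1 array; the strain term of the fit already sets each strain's arrays against each other. Leaving out an array of the fit removes the strain's other array from the growth phase term as well. The members' median change then ran from -1.57 to -1.18. The slide as a further term was not run, since slide 1 holds 1 array and the term equals leaving it out, and *ACT1* was not used as reference in the fit. The count of members lower in stationary phase at a limma adjusted p below 0.05 was 6 by quantile normalization, 6 by the authors' processed intensities and 3 by cyclic loess. Of 5728 genes, 1327, 1327 and 1329 were lower at that threshold in these fits. By cyclic loess the highest limma adjusted p of a member was 0.875. The cause was not tested. Members at least 1.5-fold higher in *ccr4Δ* in stationary phase numbered 2 or 3 under all scalings, where 2.14% to 27.0% of all genes were, and 1 without *PGK1*.

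The members' median log2 ratios that moved by more than 0.08, the spot SD of probes well above background, were these. For *ccr4Δ* over wild-type in stationary phase it was -0.24 unscaled, 0.32 by quantile normalization, 0.38 by cyclic loess, 0.31 by the authors' intensities, -0.20 by spike-in probes and -1.16 by *ACT1*. In log phase it was -0.065 by quantile normalization, 0.091 by cyclic loess, -0.050 by the authors' intensities, -0.72 by spike-in probes and 0.017 by *ACT1*. For *ccr4Δ pbp1Δ* over *ccr4Δ* in stationary phase it was 0.47 unscaled, 0.52 by spike-in probes and 0.046 by *ACT1*, and in log phase 0.15 unscaled, -0.078 by cyclic loess and 0.19 by spike-in probes. The shift in wild-type cells was -2.02 by the median, -1.50 by quantile normalization, -0.52 by cyclic loess, -1.48 by the authors' intensities, -2.60 by spike-in probes, 0.51 by *ACT1* and -1.63 without *PGK1*. In *ccr4Δ* cells it was -1.87 unscaled, -0.93 by quantile normalization, -0.42 by cyclic loess, -0.89 by the authors' intensities, -2.11 by spike-in probes and -0.70 by *ACT1*. In *ccr4Δ pbp1Δ* cells it was -1.40 unscaled, -0.67 by quantile normalization, 0.032 by cyclic loess, -0.63 by the authors' intensities, -1.64 by spike-in probes, -0.56 by *ACT1* and -1.19 without *PGK1*.

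Ratios of at least 1.5-fold, and changes called in the fit, turned sign only under *ACT1* and cyclic loess. Smaller ratios of the members also crossed 0 under other scalings: 3 of 10 were above 0 in *ccr4Δ* over wild-type in stationary phase with no scaling and 4 with spike-in probes, against 7. With *ACT1*, the ratio of *ccr4Δ* to wild-type in stationary phase turned to -0.14 for *GPM2*, -0.24 for *PDC6*, -0.58 for *ICL1*, -0.46 for *MLS1* and -0.49 for *HSP26*, and, from under 1.5-fold, to -0.81 for *PFK2*, -0.94 for *GPM1*, -1.14 for *PFK1*, -1.17 for *TDH3* and -1.21 for *TPI1*. The wild-type shift turned to 0.88 for *PGI1*, 1.07 for *PFK1*, 0.28 for *PFK2*, 1.14 for *FBA1*, 0.72 for *TPI1*, 0.29 for *GPM1* and 0.89 for *CDC19*. With cyclic loess the shift turned to 0.22 for *FBA1* in wild-type cells, to 0.0081 for *PFK1*, 0.26 for *FBA1* and 0.13 for *TPI1* in *ccr4Δ* cells, and to 0.66 for *FBA1*, 0.64 for *TPI1*, 0.43 for *GPM1* and, from under 1.5-fold, 0.35 for *PGK1* and 0.19 for *PFK1* in *ccr4Δ pbp1Δ* cells, and the fitted change to 0.38 for *FBA1* and 0.18 for *TPI1*.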
